A study of Mus musculus with 24 samples.

Results

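Selenbp2, Clec2h, Adgrf1, Enho, Dsg1c, Obp2a, Dnaic1 and Tff3 are 8 genes, of 54432 in the deposited table, whose RNA was nearly absent from mouse livers labelled Trib1-KO and present in livers in which Cebpa was deleted. They were chosen by that pattern, so their differences from WT in each group are given as descriptions with no test. The same holds for DKO against the libraries labelled Trib1-KO. Only DKO against Cebpa-KO was tested for them. The choice was a list of names and had no numeric threshold. RNA from whole liver was sequenced in 4 groups of 6 libraries, made as 2 cohorts with 3 per group in each. All mice were male, of strain C57BL/6, 20 to 21 weeks old when injected intraperitoneally with AAV-Cre, a viral vector that encodes the recombinase that removes floxed DNA. Liver was taken 4 weeks later at midday, on chow and after a 4 h fast. The groups were DKO (Trib1 and Cebpa both floxed), Trib1-KO (Trib1 Flox/Flox), Cebpa-KO (Cebpa Flox/Flox) and WT, and the WT mice received the same AAV-Cre. The labels name neither the promoter that drives Cre nor the exons that are floxed.

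Trib1 is a pseudokinase that brings the transcription factor C/EBPα, the product of Cebpa, to the ubiquitin ligase COP1 for degradation. C/EBPα is known in liver as an activator of hepatocyte genes. The design asks what the loss of each gene does to liver RNA, and what the loss of Trib1 does when Cebpa is absent too. The 8 genes come from unrelated families. Selenbp2 encodes a cytosolic selenium-binding protein of mouse liver, and Clec2h a C-type lectin-like membrane protein of a family that includes ligands for Klrb1 receptors of natural killer cells. Adgrf1 (GPR110) encodes an adhesion G protein-coupled receptor. Enho encodes the precursor of adropin, a peptide made in liver and brain and studied for its part in energy balance. Dsg1c encodes a desmoglein, the cadherin of desmosomes, Obp2a a lipocalin related to odorant-binding proteins, Dnaic1 an intermediate chain of the dynein of motile cilia, and Tff3 a trefoil peptide that mucous epithelia secrete with mucins.

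Values are the authors' estimated counts after division by each library's size factor, called normalized counts here. Library totals were 23385895 to 27190701 normalized counts, which stood for an estimated 18640877 to 34286860 reads, and 19831 to 21189 genes were above 0 in each library. A single read was worth 0.686 to 1.46 normalized counts, so values near 1 stand for about 1 read. Cebpa averaged 82.4 ± 18.1 normalized counts in DKO, 2668 ± 359 in libraries labelled Trib1-KO, 82.2 ± 17.5 in Cebpa-KO and 6019 ± 1057 in WT (SD, n = 6 each). Trib1 went against its label. It averaged 732 ± 259 normalized counts in DKO, 4237 ± 358 in libraries labelled Trib1-KO, 333 ± 158 in Cebpa-KO and 1224 ± 204 in WT. Its log2 fold change in the libraries labelled Trib1-KO against WT was 1.81 ± 0.24 (SE; limma adjusted p = 3.5e-06). What the gene total counts after the deletion is not known, since the floxed exons are not named, and every direction below that rests on these libraries rests on their label. In the same way, the libraries labelled DKO had a Trib1 level above that of Cebpa-KO (log2 fold change 1.13 ± 0.24, limma adjusted p = 0.0463).

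Selenbp2 had by far the most RNA of the 8 genes and made up 81.3 to 93.6% of their summed value, as a mean for each group. It lies on chromosome 3 (GRCm38, 94693556 to 94704413, plus strand). Its normalized counts were 48.4 at the lowest, 89.6 at the median and 142 at the highest in libraries labelled Trib1-KO, against 12089, 17657 and 34316 in WT. The libraries labelled Trib1-KO averaged 94.4 ± 36.04, which is 0.475% of the WT mean of 19870 ± 7933. The lowest, median and highest values were 14477, 60097 and 76557 in DKO and 32054, 54910 and 63300 in Cebpa-KO. Both groups without Cebpa overlapped WT at their lower end, and their means of 51376 ± 22303 (DKO) and 50255 ± 13254 (Cebpa-KO) were above the WT mean. On the log2 scale of the value plus 1, the difference of the libraries labelled Trib1-KO from WT was -7.71 ± 0.33 (SE).

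Selenbp2 has a near copy, Selenbp1, 228.6 kb away on the same chromosome. The GENCODE M21 coding sequences of both genes are 1416 bases long and differ at 18 positions, an identity of 98.7%. The 60 bases at coding positions 390 to 449 hold 4 of the differences and are shown because reads of the copies can be told apart there. Capitals mark the bases that differ.
Selenbp2 coding bases 390 to 449: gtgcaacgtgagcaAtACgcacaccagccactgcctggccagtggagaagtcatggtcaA
Selenbp1 coding bases 390 to 449: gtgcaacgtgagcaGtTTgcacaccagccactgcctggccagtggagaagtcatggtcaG
Selenbp1 RNA averaged 6441 ± 543 normalized counts in DKO, 6322 ± 878 in libraries labelled Trib1-KO, 7192 ± 733 in Cebpa-KO and 7416 ± 924 in WT (SD, n = 6 each). Its 6 libraries labelled Trib1-KO held 4967 to 7215 and its 6 WT libraries 5956 to 8694, so that these groups overlapped from 5956 to 7215. The difference was -0.23 ± 0.10 on the log2 scale and did not pass the test (limma adjusted p = 0.0895). Of the 31-base words in Selenbp2 transcripts, 59.3% also occur in Selenbp1, so the authors' estimates for the pair share many reads. With 6322 normalized counts of Selenbp1 in the libraries labelled Trib1-KO, how many of the 94.4 assigned there to Selenbp2 came from Selenbp1 was not tested.

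**Figure D1:**
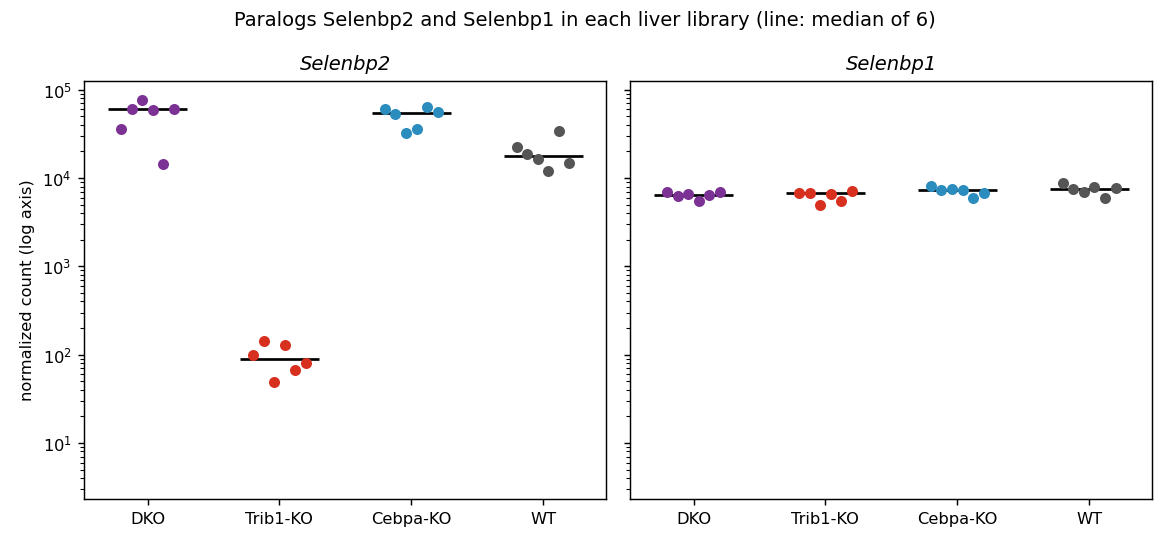
Normalized counts on a log axis of the paralogs Selenbp2 (left) and Selenbp1 (right) in each of 24 libraries, by group, where each point is 1 library and the line is the median of 6. Selenbp2 lies at 48.4 to 142 in the libraries labelled Trib1-KO and at 12089 or more in the other groups, while Selenbp1 lies between 4967 and 8694 in every group.

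The promoters of the pair are shown because they are much alike, though less so than the coding sequences, while the RNA of the genes differs in its pattern. Each sequence runs from 250 bases before to 50 bases after the RefSeq start (GRCm38.p6). In a global alignment 272 of the 300 bases (90.7%) were identical, and capitals mark the 28 bases of each that were not.
Selenbp2, chr3:94693323-94693622, plus strand: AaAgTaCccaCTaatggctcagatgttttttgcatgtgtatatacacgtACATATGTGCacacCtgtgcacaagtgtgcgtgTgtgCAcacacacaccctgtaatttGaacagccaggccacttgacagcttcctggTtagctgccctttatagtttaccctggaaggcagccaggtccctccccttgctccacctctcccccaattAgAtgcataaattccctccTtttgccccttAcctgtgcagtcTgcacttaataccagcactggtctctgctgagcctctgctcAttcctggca
Selenbp1, chr3:94932833-94933132, plus strand: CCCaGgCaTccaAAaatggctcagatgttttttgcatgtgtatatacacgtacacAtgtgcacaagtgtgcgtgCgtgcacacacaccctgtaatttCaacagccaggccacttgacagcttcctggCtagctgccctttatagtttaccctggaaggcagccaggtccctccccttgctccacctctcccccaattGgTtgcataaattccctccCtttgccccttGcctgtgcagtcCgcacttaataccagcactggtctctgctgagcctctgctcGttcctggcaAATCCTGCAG
RefSeq promoters of 5 of the 8 genes were used, namely Selenbp2, Clec2h, Adgrf1, Obp2a and Dnaic1. The strings TTNNGNAA for C/EBP, TTCNNNGAA for STAT5 and CAAAGNCCA for HNF4A were searched on both strands. No match was found in the 5 windows, whereas 40.7% of all 32851 promoters hold the C/EBP string, 8.3% the STAT5 string and 1.98% the HNF4A string. The TATA box string TATAAA, searched on the gene's strand, occurs in 8.32% of all promoters and among the 5 only in Obp2a, 61 bases before the start, in capitals here. The absence of a string says only that these letters are not in this window.
Obp2a, chr2:25699824-25700123, plus strand: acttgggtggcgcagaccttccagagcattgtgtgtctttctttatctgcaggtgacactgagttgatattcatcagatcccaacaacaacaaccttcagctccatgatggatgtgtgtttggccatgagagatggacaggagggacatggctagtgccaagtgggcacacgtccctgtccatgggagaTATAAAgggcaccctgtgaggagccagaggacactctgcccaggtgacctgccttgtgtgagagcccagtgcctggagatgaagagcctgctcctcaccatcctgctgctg

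Clec2h (chromosome 6, 128662385 to 128677374) was listed at 0 in 5 of the 6 libraries labelled Trib1-KO and at 1.28 normalized counts in library D1, against 110, 201 and 436 normalized counts as lowest, median and highest in WT. These libraries together held an estimated 1.1 reads, and their mean was 0.0917% of the WT mean, with a counting interval of 0.00174 to 0.384% of WT reads (exact Poisson, 95%, counting error only). In DKO the lowest, median and highest values were 489, 1085 and 1587, and in Cebpa-KO 1557, 1981 and 2694. All 12 libraries of these groups lay above the highest WT library. Clec2h averaged 484% of the WT mean in DKO and 882% in Cebpa-KO. Of its transcripts' 31-base words, 5.41% occur in other genes, mostly Clec2i.

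Adgrf1 (chromosome 17, 43270329 to 43324737) had 0.963, 6.03 and 10.2 normalized counts as lowest, median and highest in libraries labelled Trib1-KO, against 165, 284 and 441 in WT. The libraries labelled Trib1-KO averaged 1.94% of WT, with a log2 difference of -5.60 ± 0.36 (SE). Adgrf1 stayed close to WT where Cebpa was deleted, at 85.3% of the WT mean in DKO (124, 236 and 339) and 98.8% in Cebpa-KO (181, 237 and 448). These 3 groups overlapped.

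Enho (chromosome 4, 41638144 to 41640324, minus strand) had 2.28, 9.64 and 15.1 normalized counts as lowest, median and highest in libraries labelled Trib1-KO, against 235, 315 and 689 in WT. That is 2.34% of the WT mean and a log2 difference of -5.31 ± 0.31 (SE). In DKO the values were 846, 934 and 1575, and in Cebpa-KO they were 616, 686 and 755. Every DKO library was above every WT library, whereas the lower Cebpa-KO libraries overlapped the highest WT libraries. The spread was unequal, with highest to lowest ratios of 1.86 in DKO, 1.22 in Cebpa-KO and 2.93 in WT.

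Dnaic1 (chromosome 4, 41569775 to 41638158, plus strand) lies beside Enho on the other strand, and the annotated genes share 15 bases. It was listed at 0 in 5 libraries labelled Trib1-KO and at 0.221 normalized counts in C1, an estimated 0.2 reads in all 6, against 2.93, 15.6 and 120 in WT. A count of 0 allows up to 3 reads over the group, as a 95% limit on the upper side only, which is 1.19% of the WT reads. The counting intervals of Clec2h and Obp2a have limits on both sides, so this limit is not like theirs. WT itself was uneven, since the 3 libraries with letter A held 2.93 to 13.8 and the 3 with letter B 17.3 to 120. In DKO the lowest, median and highest values were 56.5, 99.1 and 299, and in Cebpa-KO 22.2, 36.03 and 50.9. Both groups overlapped WT.

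Dsg1c (chromosome 18, 20247340 to 20285031) had 0.964, 4.43 and 5.69 normalized counts as lowest, median and highest in libraries labelled Trib1-KO, against 46.5, 126 and 177 in WT, or 3.29% of the WT mean and a log2 difference of -4.60 ± 0.33 (SE). In DKO the values were 240, 415 and 773, and in Cebpa-KO 507, 838 and 1382. All libraries of both groups were above the highest WT library, with group means at 382% of WT in DKO and 731% in Cebpa-KO. Dsg1c shares 39.4% of its 31-base words with other genes, mostly Dsg1a, whose own mean was 0 in DKO and 1.34 in WT.

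Obp2a (chromosome 2, 25700043 to 25703326) was listed at 0 in 4 libraries labelled Trib1-KO and reached 1.93 normalized counts, an estimated 3.0 reads in all 6, against 11.4, 26.4 and 36.9 as lowest, median and highest in WT. The mean was 2.06% of the WT mean, with a counting interval of 0.404 to 5.73% of WT reads. It stood at 1759% of the WT mean in DKO (169, 397 and 831) and 548% in Cebpa-KO (66.9, 136 and 200). All libraries of both groups exceeded the highest WT library.

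Tff3 (chromosome 17, 31125306 to 31129646, minus strand) is 12.1 Mb from Adgrf1. It was listed at 0 in 2 libraries labelled Trib1-KO and reached 1.46 normalized counts, an estimated 4.0 reads in all 6, against 13.8, 24.4 and 501 as lowest, median and highest in WT. A single WT library, B3, held the 501, and the next highest held 27.6. The libraries labelled Trib1-KO averaged 0.688% of the WT mean, and 3.28% without B3, where WT averaged 21.3 ± 6.07 (SD, n = 5). In DKO the values were 7.35, 39.2 and 164, and in Cebpa-KO 8.61, 15.3 and 43.0, and both groups overlapped WT. Cebpa-KO stood at 20.4% and DKO at 55.3% of the full WT mean, and at 97% and 263% of the WT mean without B3.

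**Figure D2:**
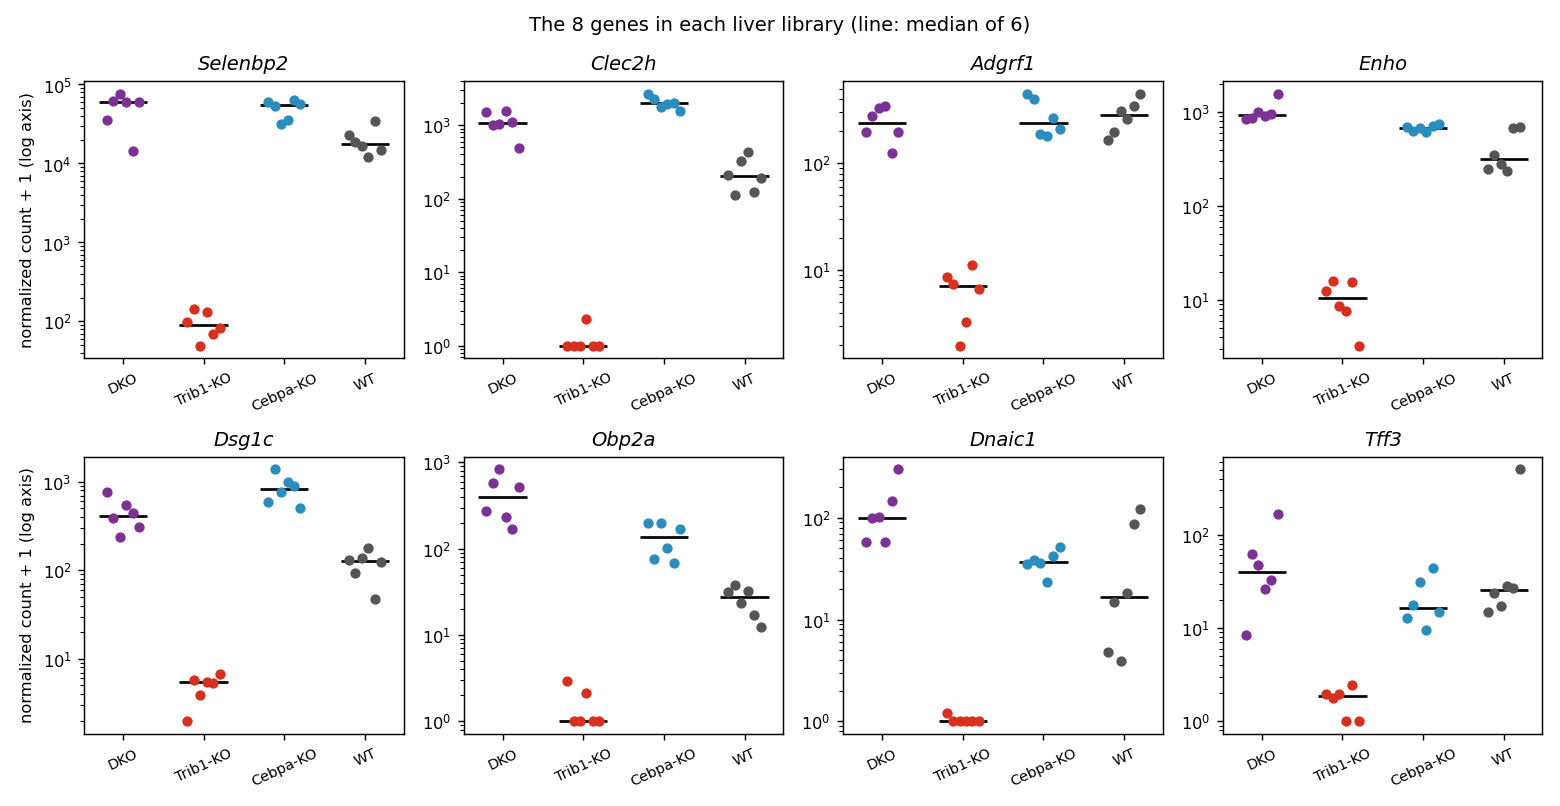
Normalized count plus 1 on a log axis for each of the 8 genes, in DKO, Trib1-KO, Cebpa-KO and WT libraries, where each point is 1 library and the line is the median of 6. The libraries labelled Trib1-KO lie below all other libraries in each panel, and WT library B3 stands apart for Tff3 at 501.

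In the comparison of the libraries labelled Trib1-KO with WT, all 8 genes had groups that did not overlap, with the libraries labelled Trib1-KO lower, as had 5.71% of the 19810 genes tested. Among all 19810 tested genes ordered from the lowest difference in log2(value + 1), Selenbp2 and Clec2h were at places 1 and 2, Adgrf1 at 6, Enho at 8, Dsg1c at 11, Tff3 at 14, Dnaic1 at 16 and Obp2a at 17. The order depends on the added constant, since with 0.5 in place of 1 Clec2h stood at -8.39 and Selenbp2 at -7.72, and with 5 at -5.35 and -7.64. Where Cebpa was deleted alone, 3 of the 8 (Clec2h, Dsg1c and Obp2a) lay above WT without overlap, against 2.52% of all genes. In DKO these 3 and Enho did so, against 1.55% of all genes. All 8 were higher in DKO than in the libraries labelled Trib1-KO without overlap, as were 8.14% of all genes. These counts follow from how the genes were selected and nothing is read from them. In bulk liver, fewer cells of a type and less RNA per cell cannot be told apart.

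The change is large for the share of liver RNA too. The 8 genes held 0.225 ± 0.0937% of all normalized counts in DKO, 0.00045 ± 0.000164% in libraries labelled Trib1-KO, 0.224 ± 0.0586% in Cebpa-KO and 0.0845 ± 0.0318% in WT (SD, n = 6 each). Per kilobase of merged exon, the WT order of mean levels was Selenbp2 (8749), Enho (325), Tff3 (205), Clec2h (85.8), Adgrf1 (74.0), Obp2a (33.2), Dsg1c (28.7) and Dnaic1 (14.6). By the WT median, which a single library moves less, Tff3 stood at 49.5 per kilobase and Dnaic1 at 5.59. In DKO, Obp2a (584 per kilobase) stood behind Selenbp2 (22623) and Enho (808), and Adgrf1 (63.2) and Dnaic1 (45.2) were the lowest.

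DKO against Cebpa-KO was the comparison tested, between groups that by their labels differ in Trib1 and share the deletion of Cebpa. The selection asked for RNA in both groups, which limits the differences that can appear, but did not set the direction between them. None of the 8 genes was called (limma, Benjamini-Hochberg over 19810 genes, adjusted p under 0.05), where 0.0808% of all genes were called higher in DKO and 0.121% lower. At an unadjusted p under 0.05 there were 4 of the 8, with Obp2a and Dnaic1 higher in DKO and Clec2h and Dsg1c lower, against 9.48% of all genes. Obp2a averaged 434 ± 254 in DKO and 135 ± 60.9 in Cebpa-KO, a log2 difference of 1.59 (95% interval 0.76 to 2.42, limma adjusted p = 0.108). Dnaic1 averaged 126 ± 90.8 in DKO and 36.8 ± 9.41 in Cebpa-KO, a difference of 1.53 (0.26 to 2.81, adjusted p = 0.414). For Clec2h the DKO mean was 1124 ± 397 and the Cebpa-KO mean 2051 ± 400, a difference of -0.94 (-1.57 to -0.31, adjusted p = 0.278). For Dsg1c they were 448 ± 190 and 859 ± 317, a difference of -0.96 (-1.64 to -0.28, adjusted p = 0.321).

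The 4 others had intervals that included 0. Selenbp2 differed by -0.10 (-0.78 to 0.59, limma adjusted p = 0.962), Adgrf1 by -0.20 (-0.95 to 0.55, adjusted p = 0.917), Enho by 0.56 (-0.08 to 1.21, adjusted p = 0.617) and Tff3 by 1.05 (-0.38 to 2.48, adjusted p = 0.69). For Enho and Dnaic1, 2 of the 8 genes, every DKO library was above every Cebpa-KO library, as was the case for 0.273% of all genes. The widest reach was that of Dnaic1, to a log2 difference of 2.81, and the intervals of Selenbp2 and Adgrf1 still reached -0.78 and -0.95. Alike levels in DKO and Cebpa-KO are therefore not shown for any of the 8 genes. Between DKO and the libraries labelled Trib1-KO the log2 differences were 8.99 for Selenbp2, 5.36 for Adgrf1, 6.73 for Enho and 6.53 for Dsg1c.

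**Figure D3:**
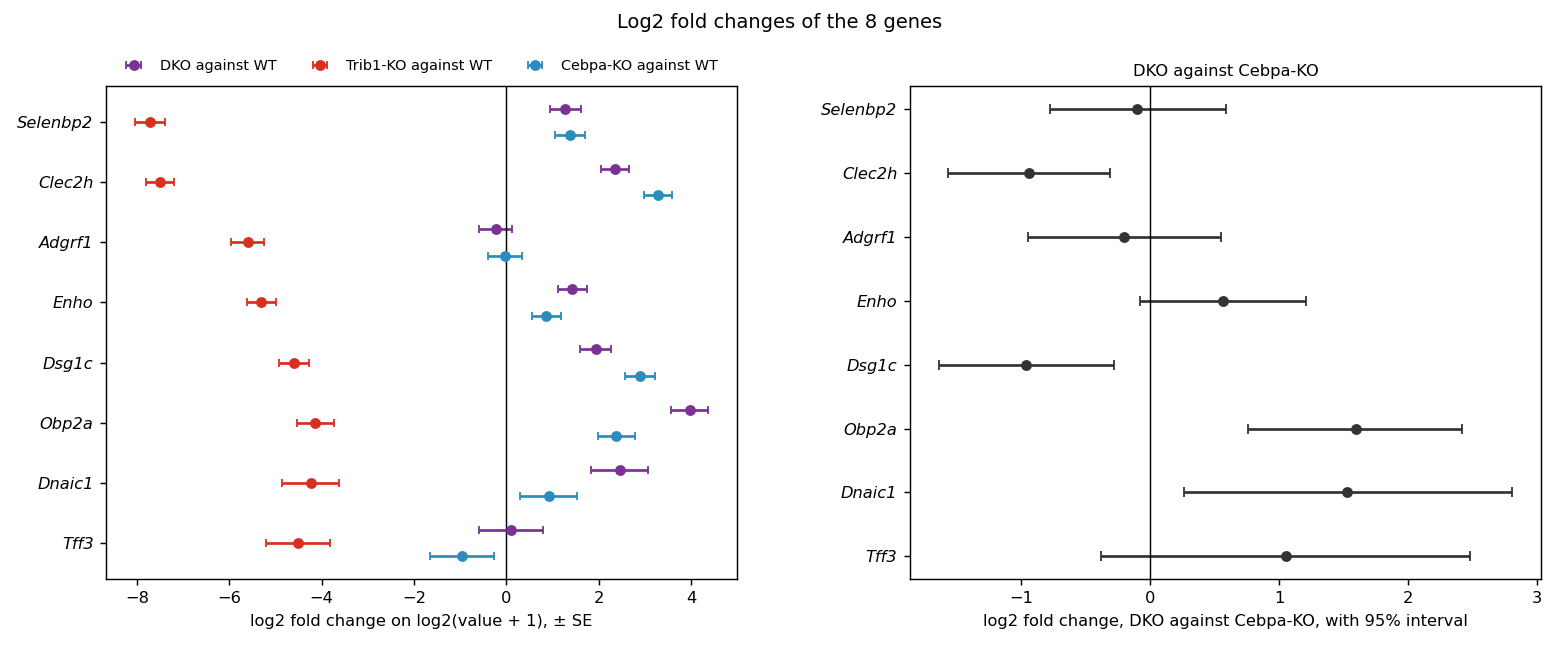
Left, log2 fold changes on log2(value + 1) with their standard errors for DKO, Trib1-KO and Cebpa-KO against WT; right, DKO against Cebpa-KO with 95% intervals, for the 8 genes. The differences of the libraries labelled Trib1-KO from WT lie between -7.71 and -4.14, and depend on the added 1 for the genes with values of 0 there (Clec2h, Obp2a, Dnaic1 and Tff3), and those of DKO from Cebpa-KO lie between -0.96 and 1.59.

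Of the genes next to the 8 on their chromosomes, those tested changed less in the libraries labelled Trib1-KO than the 8. The 8 were picked for their large fall there, so that contrast follows from the selection and nothing is read from it. Of 42 protein-coding neighbours, the 3 on each side of each gene, 41 were in the table and 23 were abundant enough to test. Against WT, 3 were called higher and 4 lower in the libraries labelled Trib1-KO (limma), where 11.8 and 10.9% of all genes were. When libraries were scaled to totals without Mup genes, the split was 5 higher and 2 lower, all genes split into 5181 higher and 987 lower in place of 2330 and 2168, and the median of all genes was 0.24 in place of 0.01 on the log2 scale. The median log2 difference of the neighbours was 0.02, and that of all genes 0.01. The lowest was Cgn, which encodes the tight junction protein cingulin and lies 55.7 kb from Selenbp2, at 446 ± 44.7 against 1067 ± 153 normalized counts in WT (log2 difference -1.25 ± 0.09, adjusted p = 1.7e-10). AI464131, 66.7 kb from Dnaic1, differed by -0.65 ± 0.09 (adjusted p = 7.92e-06). Tuft1 near Selenbp2 (-0.93 ± 0.34, adjusted p = 0.0489) and Pzp near Clec2h (-0.45 ± 0.14, adjusted p = 0.0268) lost their calls under the scaling without Mup genes, at adjusted p = 0.141 and 0.268. Tnfrsf21 and Cd2ap near Adgrf1 were higher by 0.55 ± 0.12 and 0.26 ± 0.09 (adjusted p = 0.00152 and 0.0403), and the desmocollin gene Dsc2 near Dsg1c by 0.49 ± 0.09 (adjusted p = 9.27e-05). In Cebpa-KO against WT, 2 of the 23 neighbours were called higher and 1 lower, where 4.6 and 5.22% of all genes were. Cgn was among the higher (0.44 ± 0.09, limma adjusted p = 0.00211). It was also called higher in DKO against WT (0.36 ± 0.09, adjusted p = 0.0187).

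The 3 neighbours of the overlapping pair Enho and Dnaic1 that lie within 71.7 kb of Enho on its far side, Cntfr, Il11ra1 and Rpp25l, were at 68.0, 503 and 231 normalized counts on average in libraries labelled Trib1-KO and 106, 598 and 232 in WT. None passed the test (adjusted p = 0.441, 0.125 and 0.921). Fam219a, whose gene lies 0.2 kb from Dnaic1, was at 207 ± 70.3 in libraries labelled Trib1-KO and 169 ± 27.1 in WT (adjusted p = 0.403). Bmyc, 3.4 kb from Obp2a, was at 40.4 ± 12.0 and 64.8 ± 21.5 in the same order (log2 difference -0.66 ± 0.27, adjusted p = 0.0869). Abcg1, a cholesterol transporter gene 7.3 kb from Tff3, was at 329 ± 127 in libraries labelled Trib1-KO and 184 ± 72.9 in WT (0.84 ± 0.32, adjusted p = 0.0579).

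**Figure D4:**
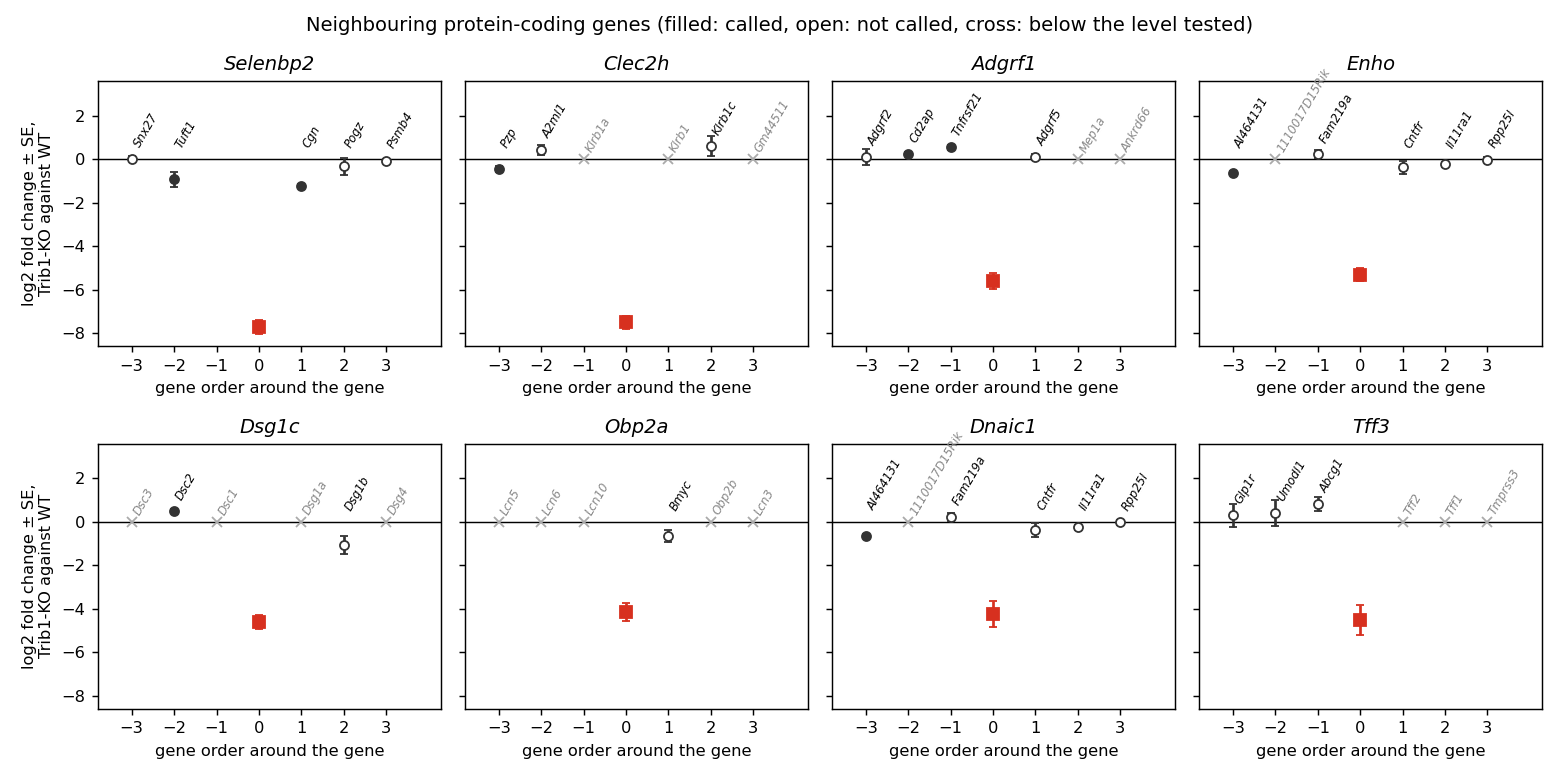
Log2 fold change with its standard error in the libraries labelled Trib1-KO against WT for each of the 8 genes (red square at 0) and the 3 protein-coding genes on each side in order of position. Filled points were called, open points were not, and crosses mark genes below the level tested. The lowest neighbour is Cgn at -1.25, and Selenbp2 beside it, picked for its fall, is at -7.71.

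Relatives and partners of the 8 genes were read from 8 lists with 104 genes, of which 103 were in the table and 58 were tested. In the libraries labelled Trib1-KO against WT, 9 were called higher, 12 lower and 37 were not called (limma). Of all genes 11.8% were called higher and 10.9% lower, and these shares stand beside each list count below for these libraries. With totals without Mup genes the split was 12 higher and 7 lower, and all genes split into 5181 higher and 987 lower. In Cebpa-KO against WT, 5 of the 58 were called higher and 5 lower, where 4.6 and 5.22% of all genes were. The median log2 difference of the 58 in the libraries labelled Trib1-KO was 0.01, as for all genes.

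The closest relatives of the 8 mostly had little RNA in liver. Tff1, Tff2, Obp2b, Dsg1a and Dnaic2 had means under 2 normalized counts in every group and were below the level tested. Dsg1b, also rare, was at 0.243 in libraries labelled Trib1-KO and 1.64 in WT (adjusted p = 0.0577). Among Clec2 lectins, Clec2d was at 1223 ± 193 in libraries labelled Trib1-KO against 2103 ± 323 in WT, a log2 difference of -0.78 ± 0.11 (adjusted p = 5.26e-06). Clec2i was higher, at 20.6 ± 7.93 against 7.76 ± 3.34 in WT (1.28 ± 0.45, adjusted p = 0.0432), and lost its call under quantile normalization (adjusted p = 0.0897). In the adhesion receptor subfamily none of the 3 genes tested was called by limma, with 1 at an unadjusted p under 0.05. Of them, Adgrf5, a receptor of endothelial cells, was at 1385 ± 122 in libraries labelled Trib1-KO and 1293 ± 174 in WT. Gpr19, a proposed receptor of adropin, was at 70.1 ± 17.8 and 84.7 ± 14.5 in the same order (adjusted p = 0.358).

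Of 10 desmosome genes tested, 2 were called higher and 4 lower in the libraries labelled Trib1-KO. Dsp, which encodes desmoplakin, was at 911 ± 195 against 1463 ± 332 in WT (-0.68 ± 0.16, adjusted p = 0.00243), and Dsg2, the widely expressed desmoglein, at 1603 ± 206 against 2243 ± 280 (-0.48 ± 0.09, adjusted p = 0.00013). The other two called lower, Jup and Perp, lost their calls with totals without Mup genes (adjusted p = 0.117 and 0.489). Of 11 lipocalins tested, 2 were called higher and 4 lower. The acute phase gene Orm3 was at 1471 ± 188 in libraries labelled Trib1-KO and 40.6 ± 42.4 in WT (5.72 ± 0.77, adjusted p = 3.63e-06), and Ambp, the alpha-1-microglobulin and bikunin precursor, at 26264 ± 949 and 46089 ± 5507 (-0.80 ± 0.17, adjusted p = 0.000786). Rbp4 and Apom, also called lower, lost their calls under quantile normalization (adjusted p = 0.803 and 0.136) and with totals without Mup genes (0.621 and 0.494).

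Of 23 motile cilium genes tested, 4 were called higher and 3 lower in the libraries labelled Trib1-KO. Rsph4a, a radial spoke gene, was at 245 ± 51.7 in libraries labelled Trib1-KO against 3.87 ± 0.705 in WT (5.64 ± 0.34, adjusted p = 4.24e-12), and the axonemal dynein gene Dnah11 at 73.9 ± 79.2 against 3.66 ± 3.02 (3.83 ± 0.69, adjusted p = 0.000169). Another dynein gene, Dnah8, was at 54.4 ± 50.9 against 7.44 ± 9.07 (2.85 ± 0.70, adjusted p = 0.00378). The genes called lower were Rsph9, another radial spoke gene (-1.59 ± 0.43, adjusted p = 0.00849), the dynein gene Dnah5 (-1.58 ± 0.54, adjusted p = 0.0372) and Ccdc114 (-1.15 ± 0.38, adjusted p = 0.0317). Ccdc114 lost its call with totals without Mup genes (adjusted p = 0.0621), and the gene Dnaaf3, called higher, lost its call under quantile normalization (adjusted p = 0.0751). Of 4 trefoil, mucin and mucous cell genes tested none was called by limma, with 1 at an unadjusted p under 0.05.

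Genes that differ between male and female mouse liver moved in the same libraries, and male-biased genes in Cebpa-KO too. Of 20 male-biased genes tested, 2 were called higher (C6 and Serpina12, by 1.16 and 2.70) and 10 lower in the libraries labelled Trib1-KO against WT. Of 20 female-biased genes 10 were called higher and none lower (12 at an unadjusted p under 0.05). In Cebpa-KO against WT, 2 male-biased genes were called higher and 7 lower, and 1 female-biased gene higher and 2 lower. There, 4.6% of all genes were called higher and 5.22% lower. Mup20, a major urinary protein, was at 24300 ± 8270 in libraries labelled Trib1-KO and 212406 ± 51101 in WT, and Cyp2b9 at 4776 ± 1876 and 4.98 ± 4.56. In the growth hormone list 3 of 12 genes were called lower (Ghr, Igf1 and Igfals, by -0.54, -0.46 and -0.79 on the log2 scale) and 1 higher (Jak2, which lost its call under quantile normalization at adjusted p = 0.0636). How these changes and those of the 8 genes are related was not tested.

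The summed level of hepatocyte markers was lower in the libraries labelled Trib1-KO, without overlap with WT. Of 10 markers none was called higher and 6 were called lower, and none was at 0. Apob, called lower at -0.21, was at 0.03 with totals without Mup genes (adjusted p = 0.765), and Fabp1 lost its call under quantile normalization (adjusted p = 0.0752). Tat, Cps1, Hnf4a and Serpina1a were not called. The sum of the 10 was 955866 to 1086318 normalized counts in libraries labelled Trib1-KO and 2017009 to 2785062 in WT, and most of that difference was Alb, the albumin gene, at 356731 ± 57778 in libraries labelled Trib1-KO and 1451667 ± 277014 in WT. Among cholangiocyte markers, 0 of 11 tested were called higher and 3 lower (Epcam not with totals without Mup genes, adjusted p = 0.0894), with sums of 3543 to 3965 in libraries labelled Trib1-KO and 4086 to 4579 in WT. Kupffer cell and macrophage markers were called higher for 10 of 12, with sums of 18896 to 22138 and 9915 to 17988 in the same order. The WT median was 11809, and 17988 was library B3. Called higher, with none lower, were 3 of 8 stellate, 3 of 8 lymphocyte and natural killer and 3 of 5 neutrophil markers. Of 8 sinusoidal endothelial markers 2 were called higher and 2 lower. Cd8a, S100a8 and Csf3r lost their calls under quantile normalization (limma adjusted p = 0.092, 0.0888 and 0.0802). Stab1 and Kdr, called lower, lost theirs with totals without Mup genes (0.338 and 0.704). The part of these shifts in the values of the 8 genes was not tested.

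The level pattern that the 8 genes were picked for is not theirs alone. Of 14382 genes with a WT mean of at least 10 normalized counts, 61 had a mean in the libraries labelled Trib1-KO of at most 1/8 of WT. Of those, 46 (75.4%) kept at least 1/2 of the WT mean in both DKO and Cebpa-KO, and 7 of the 46 are among the 8 genes. Tff3 is missing because of WT library B3, and without that library 47 genes had the pattern with all 8 among them. Of the 46, 29 have a plain gene symbol, 7 of which are cytochrome P450 genes of the Cyp2a, Cyp2c and Cyp4a subfamilies. The lowest outside the 8 with a sizeable WT level was Ugt2b38, a glucuronosyltransferase gene, at 662 in DKO, 11.2 in libraries labelled Trib1-KO, 427 in Cebpa-KO and 389 in WT. Cyp2c37 was at 15769, 356, 21478 and 7632, and Cyp2c29 at 71146, 2971, 76596 and 46115 in the same order of groups. Rarer genes of the kind were Amer2, at 0.196 in libraries labelled Trib1-KO and 10.2 in WT, Cyp2a22 (1.10 and 17.9), Serpina9 (1.60 and 25.9) and Ihh, the hedgehog ligand gene (1.75 and 26.6). Fam177a was listed at 0 in libraries labelled Trib1-KO and averaged 13.7 in WT. The abundant Cyp2c54 and Cyp4a14 were at 376 and 629 in libraries labelled Trib1-KO, against 5972 and 9901 in WT.

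Likeness of pattern was measured as Pearson's r over the 24 libraries between a gene's log2 value and the mean standardised log2 value of the 8. It is a description over libraries of 4 groups that share their scaling. The 8 themselves had r of 0.856 (Tff3) to 0.989 (Enho). Each of these r is raised by construction, since the mean includes the gene itself, and cannot be set beside those of other genes. The 10 most alike of 14526 genes compared, outside the 8, were Prdx4 (0.986), C1ra (0.985), Amacr (0.984), Pigr (0.983), Ces1c (0.982), Cyp2c23, Ftcd and Ces1g (each 0.980), and Mug1 and Proc (each 0.979). Within groups r was uneven, from -0.90 (Ces1c) to 0.91 (Ftcd) in DKO, from -0.05 (Amacr and Cyp2c23) to 0.90 (Proc) in Cebpa-KO and from -0.48 (Ces1g) to 0.93 (Prdx4) in WT, so the likeness over the 24 libraries does not hold within every group. All 10 had their lowest mean in the libraries labelled Trib1-KO and means above WT in DKO and Cebpa-KO. Prdx4, for example, was at 1986 ± 193 in DKO, 607 ± 81.4 in libraries labelled Trib1-KO, 1862 ± 108 in Cebpa-KO and 1441 ± 136 in WT. The carboxylesterase gene Ces1g came closest to the 8 in size, at 13018 ± 1507, 387 ± 93.5, 14131 ± 1592 and 5594 ± 557 in the same order.

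Within a group, the overlapping neighbours Enho and Dnaic1 varied together in the values as given. Over the 6 libraries r was 0.88 in DKO (exact permutation p = 0.0417, rho 0.89), 0.83 in Cebpa-KO (exact p = 0.0389, rho 0.77) and 0.89 in WT (exact p = 0.0639, rho 0.60). The exact permutation p of rho was 0.0333 in DKO, 0.103 in Cebpa-KO and 0.242 in WT. Of 28 pairs among the 8 genes this pair had the highest r in DKO and WT and the second highest in Cebpa-KO. After adjustment over all 84 relations the p was 0.335 in each group for r, and 0.507, 0.507 and 0.597 for rho. Without the 2 libraries farthest from the median of Enho, r was 0.43, 0.20 and 0.14, so the relation rests on those libraries. The highest DKO library for both genes was H3, at 1575 for Enho and 299 for Dnaic1.

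**Figure D5:**
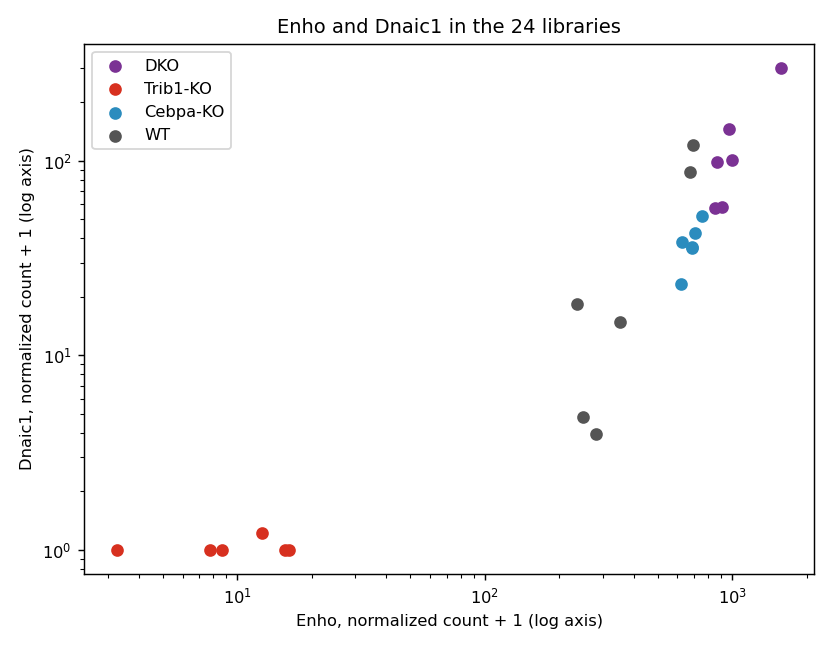
Normalized counts plus 1 of Enho (x, log axis) and Dnaic1 (y, log axis), where each point is 1 of 24 libraries, coloured by group. The libraries labelled Trib1-KO lie at the lower left with Dnaic1 listed at 0 in 5 of 6, and DKO library H3 is at the upper right with 1575 and 299.

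The columns carry the numbers 1 to 3 within each letter, and the labels do not tie columns to cohorts. Taken number by number, the libraries labelled Trib1-KO averaged between 0 and 6.62% of WT for each of the 8 genes. WT library B3 was the highest WT library for 4 of the 8 genes and DKO library H3 the highest DKO library for 3.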

How the data were processed

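Per the submitters' processing notes, Salmon, DESeq2 and GRCm38.p6 were used, with no versions or settings. The authors deposited 1 table of a signal, namely estimated counts per gene divided by a size factor, an account that rests on the values, since 60.7 to 66.0% of the low values lay, to within 0.02, at whole multiples of 1 read's worth, too few to recover reads. Columns name the group, not the mouse or cohort, so no cohort term was fitted, and p-values measure the spread between libraries. Symbols and positions came from GENCODE M21, which held 99.3% of gene IDs, and promoters from RefSeq. The 8 genes and all lists were chosen with earlier results of these data known. Values were fitted with limma 3.58.1 (R 4.3.3, intensity trend) on log2(value + 1) for 19810 genes with a mean of at least 1, 4 group means in 1 model, Benjamini-Hochberg over all, called under 0.05. The procedure was tested on simulated data. Named were the 8 genes, Trib1, Cebpa, their closest paralogs, called neighbours and list genes, and the 10 lowest-ratio and the 10 most alike genes with plain symbols. The rule for called neighbours and list genes was the smallest adjusted p, up to 3 each. It was not kept throughout, since some called list genes with a smaller adjusted p were left out. Other neighbours and list genes were named after their values were seen. Alternatives were the pseudocount, filter, scaling, model, column number and each library left out.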

Additional observations from a re-analysis of the deposited data

Results flagged for a closer look

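In 6 of the 32 sets of 6 libraries formed by 8 genes and 4 groups, the highest library stood apart from the other 5 by Dixon's criterion. Chance meets it in about 1 set in 20 where values are normally distributed. How often skewed counts such as these meet it was not tested. Tff3 was at 501.3 normalized counts in WT library B3, with the next library at 27.6. In DKO library H3, Tff3 was at 164.0 (next 61.1), Enho at 1574.8 (next 1000) and Dnaic1 at 298.5 (next 144). Among the libraries labelled Trib1-KO, Clec2h was at 1.279 in D1 and Dnaic1 at 0.2211 in C1, with the other 5 libraries listed at 0, so that they met the criterion by construction and stand for about 1 read or less. Without H3 the DKO means were 916 ± 65.4 for Enho, 91.1 ± 36.5 for Dnaic1 and 34.4 ± 20.5 for Tff3 (SD, n = 5).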

How the results depend on the processing

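None of the 8 genes was called in DKO against Cebpa-KO by limma under any of 33 alternatives (4 had an unadjusted p under 0.05 as reported), and the adjusted p of Obp2a ranged from 0.0528 to 0.257. For all genes in that comparison, 40 were called as reported, 25 without a filter, 61 with the column number as a term, 18 with only the 2 groups compared, and 18 to 63 with 1 library left out. Against WT, 784 of 792 values of the 8 genes stayed within their spread and 8 moved, each with the pseudocount: in the libraries labelled Trib1-KO, Clec2h was -8.39 at 0.5 and -5.35 at 5, and Dnaic1 -2.39 at 5. The level pattern held for 25 genes with a WT mean of at least 50, 108 with a limit of 1/4 in the libraries labelled Trib1-KO, 23 with DKO and Cebpa-KO at or above WT, and 42 to 53 with 1 library left out. Called neighbours numbered 5 to 8 and called family genes 16 to 23 with 1 library left out. With totals without Mup genes, 5181 genes were called higher and 987 lower in the libraries labelled Trib1-KO, against 2330 and 2168 as reported. No paired analysis was possible because the columns carry no mouse or cohort that pairs the groups. Values under about 3 reads (2.06 to 4.38 normalized counts) limit Clec2h, Obp2a, Dnaic1 and Tff3 in the libraries labelled Trib1-KO.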
